A study of Mus musculus with 24 samples.

Results

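Pgk2, Pdha2, Cetn1, Cstf2t, Rbmxl2, Utp14b and Gk2 are autosomal retrogenes, genes made when a messenger RNA of an X-linked gene was copied back into the genome. They were chosen by symbol: each Ensembl identifier in the deposited count table was paired with its mouse symbol in GENCODE release M21, and the rows of these 7 genes were taken from the 55536 rows. All 7 passed the filter on low counts, which left 20404 genes across the 21 libraries used. Polyadenylated RNA had been sequenced from male mice with a C57BL/6J background, aged 10 to 15 weeks, in 2 testis cell fractions: enriched pachytene/diplotene spermatocytes, the meiotic cells, and round spermatids, the haploid cells that follow them. The 3 genotypes were Ago413+/+ (wild type), Ago413+/- (heterozygous) and Ago413-/- (null). The Ago413 allele is a constitutive deletion on chromosome 4 that takes away the Argonaute gene Ago1 and parts of Ago3 and Ago4, so it was lost in every cell of the animal and not only in germ cells. It was made in 129 embryonic stem cells, cut with a Sox2-cre deleter and backcrossed. Per the labels, the testes of 2 to 5 mice went into a preparation, and cell fractions above 70% purity were pooled, so a library stands for several animals and for a mixture of cells. Wild type was sequenced in 4 libraries of spermatocytes and 3 of round spermatids, and the heterozygous and null genotypes in 3 of spermatocytes and 4 of round spermatids each.

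In male meiosis the X and Y chromosomes are packed into a transcriptionally silent domain, the sex body, while the autosomes stay active. Housekeeping genes on the X chromosome, among them those for glycolysis, pyruvate oxidation and RNA processing, are shut off with it. Many of them have an autosomal retrogene that is transcribed in spermatocytes and spermatids, and such copies are widely read as stand-ins for the silenced parent. The fractions and genotypes therefore ask how each copy was expressed during and after meiosis, how it compared with its parent, and whether loss of the Argonaute genes went with a change of either.

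The genes fell into 3 groups by role. Pgk2 encodes the testis form of phosphoglycerate kinase, an ATP-yielding enzyme of glycolysis, Pdha2 the testis form of the E1 alpha subunit of pyruvate dehydrogenase, which links glycolysis to the citric acid cycle, and Gk2 a glycerol kinase family protein. Cetn1, on chromosome 18 at 9615524 to 9619478 on the minus strand of the mouse genome build GRCm38, encodes a centrin, a calcium-binding protein of the centriole and basal body. Cstf2t, Rbmxl2 and Utp14b encode proteins of RNA metabolism. Cstf2t is the tau variant of the RNA-binding subunit of cleavage stimulation factor, which acts in the formation of messenger RNA ends, Rbmxl2 is the hnRNP G-T splicing protein of meiotic cells, and Utp14b acts in ribosomal RNA processing and is the gene mutated in the juvenile spermatogonial depletion mouse. The X-linked parents are, in the same order, Pgk1, Pdha1, Gk, Cetn2, Cstf2, Rbmx and Utp14a.

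On the same build, Pgk2 lies on chromosome 17 at 40207015 to 40208640 on the minus strand, Pdha2 on chromosome 3 at 141210004 to 141212355 on the minus strand, and Gk2 on chromosome 5 at 97455142 to 97457021 on the minus strand. Cstf2t lies on chromosome 19 at 31082837 to 31087069 on the plus strand, within the span of Prkg1, which is read from the opposite strand and shares no exonic base with it. Rbmxl2 lies on chromosome 7 at 107209445 to 107210916 on the plus strand. Utp14b lies on chromosome 1 at 78658038 to 78671512 on the plus strand and shares 244 exonic bases, 3.18% of its own, with Acsl3 on the same strand. No copy had an exon junction within its coding bases, whereas the parents had between 4 in Cetn2 and 20 in Gk. The coding bases of copy and parent were identical at 68.5% of aligned positions for Rbmxl2, 76.5% for Cstf2t, 77.3% for Pdha2, 78.9% for Utp14b, 79.3% for Pgk2, 80.2% for Cetn1 and 81.3% for Gk2.

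The divergence matters here because the reads were counted only where they mapped uniquely. Exonic stretches of 31 bases were compared between genes: for 6 of the 7 pairs no such stretch was shared between copy and parent, and for Gk2 and Gk 2.49% of the stretches of Gk2 were. Pgk1 was a different case, since 54.7% of its stretches also occurred in the autosomal gene Pgk1-rs7, so the counts of Pgk1 are uncertain. The pairs Pgk2 and Pgk1, Cstf2t and Cstf2, and Utp14b and Utp14a are shown because the results below turn on them. Each line gives 60 coding bases, with 30 on either side of a place where the parent has an exon junction and the copy has none, read 5′ to 3′ on the gene's strand, and capitals mark the bases that differ within a pair.
Pgk2, chr17:40207865-40207924, minus strand: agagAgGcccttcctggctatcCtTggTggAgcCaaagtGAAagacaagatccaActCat
Pgk1, spliced from 2 exons within chrX:106197932-106199676, plus strand: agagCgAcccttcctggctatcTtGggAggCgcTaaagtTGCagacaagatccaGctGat
Cstf2t, chr19:31083982-31084041, plus strand: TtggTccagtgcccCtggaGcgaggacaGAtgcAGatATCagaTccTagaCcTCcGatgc
Cstf2, spliced from 2 exons within chrX:134069878-134073165, plus strand: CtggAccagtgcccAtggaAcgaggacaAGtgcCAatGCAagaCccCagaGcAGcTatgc
Utp14b, chr1:78665380-78665439, plus strand: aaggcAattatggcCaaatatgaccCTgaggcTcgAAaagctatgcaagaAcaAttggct
Utp14a, spliced from 2 exons within chrX:48273947-48274830, plus strand: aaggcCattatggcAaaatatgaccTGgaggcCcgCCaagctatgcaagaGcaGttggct
The copies crossed the parental junctions without a gap in the genome, and 12, 17 and 9 of the 60 bases differed in the Pgk, Cstf2 and Utp14 pairs.

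A retrocopy as a rule does not bring its parent's promoter with it and is read from sequence at the place where it was inserted. The window shown for Utp14b lies within the span of Acsl3 on the same strand, so it is not its alone. RefSeq promoter entries on GRCm38.p6 were found for 6 of the 7 genes, Cetn1 having none. The 250 bases before the RefSeq start are shown for the 3 copies that changed between fractions, 5′ to 3′ on the gene's strand, with capitals at the matches to the motifs named below.
Pgk2, chr17:40208610-40208859, minus strand: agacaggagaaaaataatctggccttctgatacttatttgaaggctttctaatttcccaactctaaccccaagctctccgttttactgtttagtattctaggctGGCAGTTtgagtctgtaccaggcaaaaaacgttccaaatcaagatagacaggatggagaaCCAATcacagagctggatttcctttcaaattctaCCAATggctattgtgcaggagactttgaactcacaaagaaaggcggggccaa
Cstf2t, chr19:31082591-31082840, plus strand: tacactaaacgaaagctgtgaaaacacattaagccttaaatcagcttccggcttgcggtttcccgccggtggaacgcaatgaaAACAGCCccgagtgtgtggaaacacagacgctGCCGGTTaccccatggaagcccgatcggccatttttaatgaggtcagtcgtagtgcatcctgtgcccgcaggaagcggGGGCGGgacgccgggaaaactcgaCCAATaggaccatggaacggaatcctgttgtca
Utp14b, chr1:78658190-78658439, plus strand: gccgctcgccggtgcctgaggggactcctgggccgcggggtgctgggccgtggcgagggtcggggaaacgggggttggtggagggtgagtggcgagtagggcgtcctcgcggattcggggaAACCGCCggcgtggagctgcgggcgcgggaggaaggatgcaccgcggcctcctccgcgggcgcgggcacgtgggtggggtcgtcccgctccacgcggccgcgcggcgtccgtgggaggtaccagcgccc
Motifs were searched on both strands from 250 bases before to 50 bases after the start. Pgk2 held the CAAT box CCAAT at -86 and -52 and the MYB motif AACNGNC on the minus strand at -146. Cstf2t held the GC box GGGCGG at -57 and again at 35, CCAAT at -33, and AACNGNC at -167 and -135. Utp14b held AACNGNC at -129. Among the others, Pdha2 held the TATA box TATAAA at -44, Rbmxl2 CCAAT at -119 and GGGCGG at -67, and Gk2 AACNGNC at -9, 8 and 26. Of all 32851 promoter entries of the same length, 37.4% held CCAAT, 35.7% GGGCGG, 32.8% AACNGNC and 13.6% TATAAA. The cyclic AMP response element TGACGTCA, held by 1.79% of all entries, its shorter form TGACG, held by 20.8%, and the RFX letters GTTGCC, held by 12.5%, were in none of the 6 windows. GTTGCC and TGACG are short and TGACG lies within TGACGTCA, and a match is a description of letters only.

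Total counts ran from 12825105 to 29749058 per library, and 3 of the 24 deposited libraries, marked as outliers in the labels, were set aside. Ago1 had 41 to 122 counts in the 7 wild-type libraries, 32 to 86 in the 7 heterozygous ones and 0 in all 7 null libraries, as the labels have it. The summed level of 10 spermatocyte markers was 947 to 2479 counts per 1000000 (CPM) in the spermatocyte libraries and 705 to 1188 CPM in the round spermatid libraries, and that of 10 round spermatid markers was 3670 to 12435 CPM and 16100 to 44745 CPM. Markers of each cell type were thus measured in both fractions, which are enrichments. The share of this that came from cells of the other type was not tested. Summed markers of Sertoli cells lay between 80.04 and 431 CPM, of spermatogonia between 38.8 and 101.6 CPM, of macrophages between 6.56 and 28.1 CPM, of Leydig cells between 3.05 and 23.2 CPM and of erythrocytes between 0.990 and 10.9 CPM. In bulk RNA a lower level can come from fewer cells of a type or from less RNA per cell, and these cannot be told apart.

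The retrogenes ran from among the most abundant transcripts to the middle of the range. Together they took 0.263% to 0.364% of all counts of a library. Levels are CPM after TMM scaling of the 21 libraries, and levels of different genes are compared only as CPM per kilobase of exon. In wild-type spermatocytes Gk2 stood at 516 ± 49.9, Cetn1 at 495 ± 29.3 and Pgk2 at 427 ± 82.7 CPM per kb (SD, n = 4), at or above the 99.6th percentile of the 20404 genes tested. Ranges of these neighbours overlapped, although within libraries Cetn1 was above Pgk2 in 4 of 4 and Gk2 above Cetn1 in 3 of 4. Pdha2 followed at 100.2 ± 7.497 CPM per kb (percentile 96.7), Rbmxl2 at 60.7 ± 5.64 (percentile 94.2), Cstf2t at 11.99 ± 2.83 (percentile 78.02) and Utp14b at 4.89 ± 0.421 (percentile 64.1), none of which overlapped its neighbours. The enzymes of energy metabolism and the centrin were thus the highest, and the genes of RNA metabolism the lowest.

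**Figure D1:**
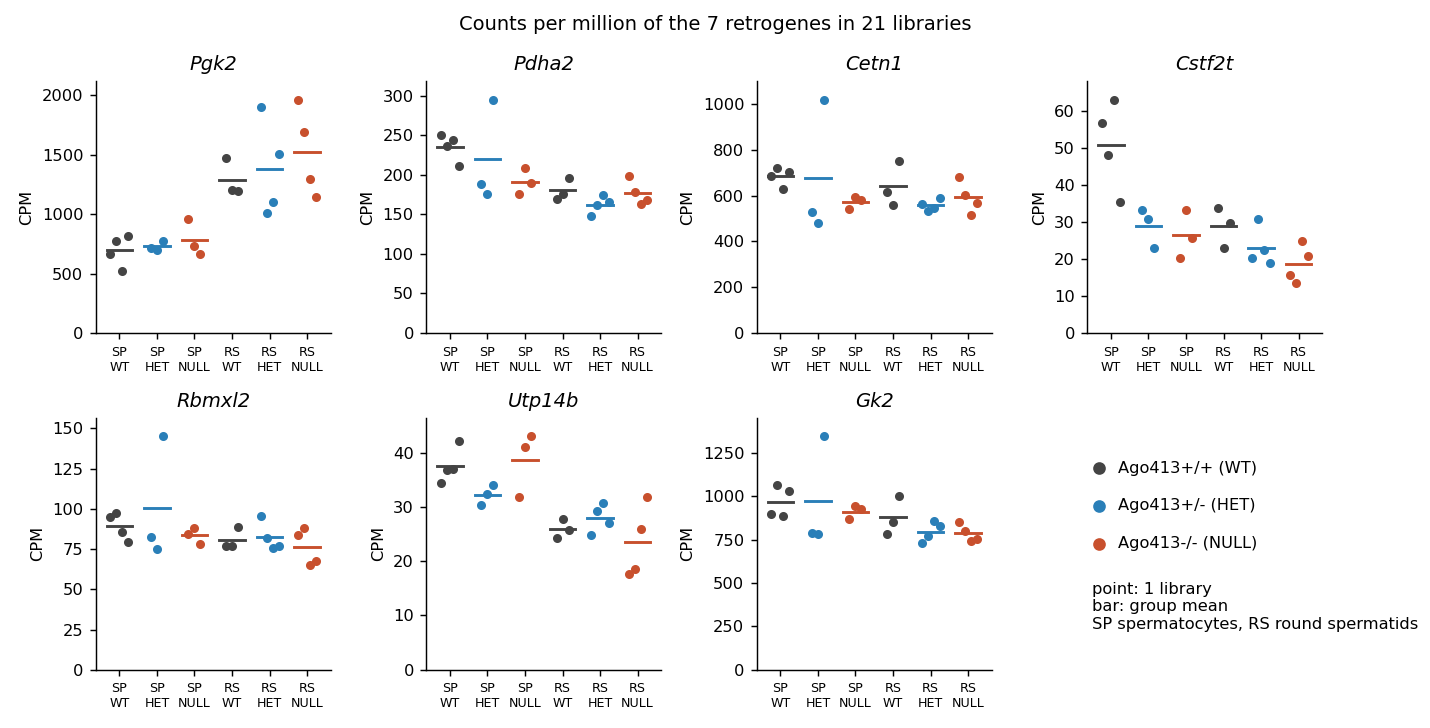
Level of each of the 7 retrogenes in CPM, by library (points) in the 6 groups of fraction and genotype. Pgk2 lies at 519 to 963 CPM in spermatocytes and at 1011 to 1964 CPM in round spermatids. Pdha2, Cetn1, Gk2 and Rbmxl2 have their highest point in the third heterozygous spermatocyte library.

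In wild-type round spermatids the order began with Pgk2 at 792 ± 97.0 CPM per kb (SD, n = 3), followed by Gk2 at 467 ± 59.3 and Cetn1 at 464 ± 71.3, which overlapped each other. Pdha2 at 76.7 ± 5.92, Rbmxl2 at 54.9 ± 4.73, Cstf2t at 6.82 ± 1.29 and Utp14b at 3.38 ± 0.230 CPM per kb kept the places they had in spermatocytes. Pgk2 was above Gk2 in 11 of 11 round spermatid libraries and in 3 of 10 spermatocyte libraries.

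The copy was far above the parent in 5 of the 7 pairs. The median ratio of copy to parent per kb in wild-type spermatocytes was 7396 for Gk2 over Gk, 944 for Pdha2 over Pdha1, 240.2 for Cetn1 over Cetn2, 218 for Pgk2 over Pgk1 and 87.9 for Rbmxl2 over Rbmx. The denominators were small: Gk lay at 0.436 to 3.19 CPM and Pdha1 at 0.291 to 1.62 CPM across the 21 libraries, with no more than 62 and 33 counts. The ratios also depend on the annotated exon lengths, for instance 1880 bases for Gk2 and 7743 for Gk. Utp14b over Utp14a and Cstf2t over Cstf2 were the exceptions, at 2.96 and 2.77. Cstf2t was above Cstf2 per kb in 5 of 10 spermatocyte and 2 of 11 round spermatid libraries, and Utp14b above Utp14a in 9 of 10 and 8 of 11. In these 2 pairs, both of RNA metabolism, copy and parent were closer in level than in the other 5.

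**Figure D2:**
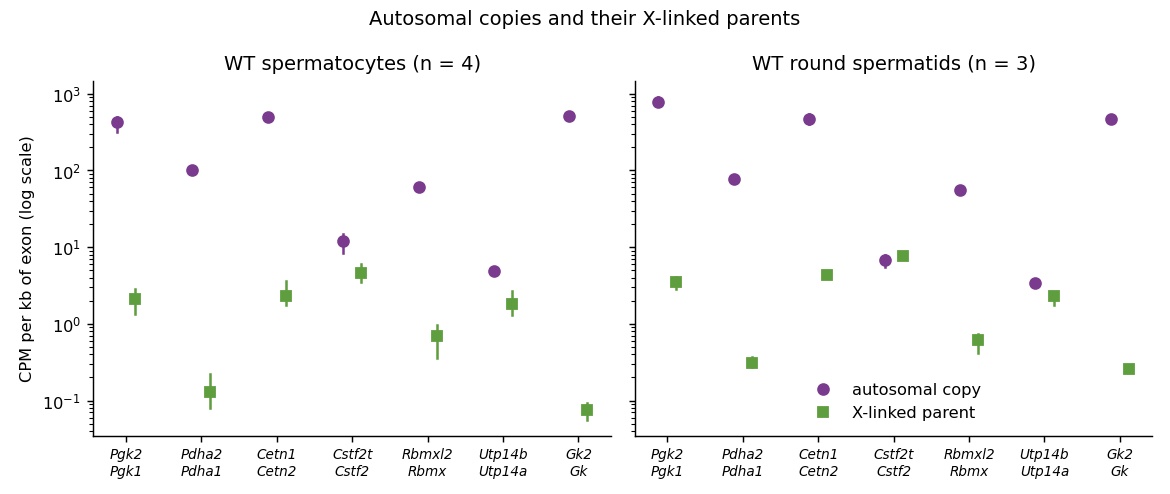
Level in CPM per kb of exon, on a log axis, of each copy and its X-linked parent in wild-type spermatocytes (n = 4) and round spermatids (n = 3), as mean and range of the libraries. Copy and parent lie closest together for Cstf2t and Utp14b, and the copy lies far above the parent for the other 5 pairs.

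Between the fractions, Pgk2 rose and Cstf2t and Utp14b fell in wild-type mice, and the other 4 copies did not pass the test. Calls were made with edgeR at an adjusted p under 0.05 and a log2 fold change over 0.5 in size. Among the 7 copies 1 was called higher in round spermatids, where 12.7% of all genes tested were, and 2 lower, where 11.4% were, and their median log2 fold change was -0.15. In heterozygous mice 1 copy was called higher, against 7.07% of all genes, and 0 lower, against 1.82% (1 copy, Pdha2, was lower at an unadjusted p under 0.05 with edgeR, and 0 were called lower with DESeq2). In null mice 1 was called higher, against 11.7%, and 1 lower, against 5.42%.

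Pgk2 in wild-type spermatocytes stood at 663, 776, 519 and 821 CPM, and in wild-type round spermatids at 1469, 1201 and 1192 CPM. The heterozygous libraries gave 718, 698 and 770.4 CPM in spermatocytes and 1905, 1011, 1104 and 1509 CPM in round spermatids. The null libraries gave 963, 732 and 666 CPM in spermatocytes and 1964, 1696, 1294 and 1144 CPM in round spermatids. All round spermatid libraries were above all spermatocyte libraries, the nearest being a heterozygous round spermatid library at 1011 and a null spermatocyte library at 963. The log2 fold change was 0.89 in wild-type (SE 0.21, adjusted p = 0.00389 with edgeR), 0.92 in heterozygous (SE 0.22, adjusted p = 0.00878) and 0.95 in null mice (SE 0.22, adjusted p = 0.00441). Pgk2 was thus 1.85 to 1.94 times higher in the round spermatid fraction in the 3 genotypes. With the 3 outlier libraries added back, the wild-type change was 0.61 (adjusted p = 0.0785) and the heterozygous one 0.79 (adjusted p = 0.0751), short of the call. With only the groups compared in the fit the heterozygous change was 0.92 (adjusted p = 0.0677). The libraries fell into the same order by Pgk2 and by the summed round spermatid markers in 3 of the 6 groups. Per 1000 CPM of these markers, a scale chosen after the values were seen, Pgk2 was 77.5 to 156 CPM in the 10 spermatocyte libraries. It was 43.9 to 68.6 CPM in the 11 round spermatid libraries, so Pgk2 rose by less than the marker sum. Taken singly, the 10 markers had median changes of 1.37 in wild-type, 0.96 in heterozygous and 1.31 in null mice, with 10, 7 and 8 above 0. The heterozygous median was thus close to the change of Pgk2.

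Cstf2t in wild-type spermatocytes stood at 56.6, 48.0, 63.0 and 35.3 CPM, and in wild-type round spermatids at 33.8, 23.03 and 29.8 CPM. The highest spermatid library was just under the lowest spermatocyte library. Its log2 fold change was -0.81 (SE 0.24, adjusted p = 0.0162 with edgeR) in wild type. The 10 spermatocyte markers had a median of -1.30 in the same comparison, with 7 called lower, and per 1000 CPM of their sum Cstf2t was 26.2 CPM in spermatocytes and 27.0 CPM in round spermatids. The same comparison gave -0.33 in heterozygous (SE 0.24, adjusted p = 0.442) and -0.50 in null mice (SE 0.24, adjusted p = 0.152), where the groups overlapped. With consecutive library numbers as a block, edgeR gave -0.82 in wild-type mice (adjusted p = 0.00879). It gave -0.25 in heterozygous (adjusted p = 0.577) and -0.36 in null mice (adjusted p = 0.260). The wild-type call rested on few libraries. It was lost with the 3 outlier libraries added back (adjusted p = 0.0729). Without the fourth spermatocyte replicate the adjusted p was 0.0613, and without the second round spermatid replicate 0.0965.

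Utp14b in wild-type mice stood at 34.4, 36.8, 36.9 and 42.1 CPM in spermatocytes and at 24.3, 27.8 and 25.8 CPM in round spermatids, with no overlap. In null mice it stood at 31.9, 41.02 and 43.0 CPM in spermatocytes and at 17.7, 18.5, 25.9 and 31.8 CPM in round spermatids, the highest of which was just under the lowest spermatocyte library. The heterozygous libraries overlapped, at 30.3, 32.4 and 34.0 CPM against 24.9, 29.2, 30.7 and 27.1 CPM. The log2 fold change was -0.53 in wild-type (SE 0.18, adjusted p = 0.0281 with edgeR), -0.20 in heterozygous (SE 0.17, adjusted p = 0.525) and -0.72 in null mice (SE 0.17, adjusted p = 0.00629). The wild-type call was lost when any of 5 libraries was left out in turn, and the null call when the third null spermatocyte replicate was (adjusted p = 0.0570). With the 3 outlier libraries added back the wild-type change was -0.25 (adjusted p = 0.366), and with no filter on low counts it was -0.50 (adjusted p = 0.0941). In 5 of the 6 groups the libraries had the opposite order by Utp14b and by the summed round spermatid markers, whose part in the change was not tested.

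**Figure D3:**
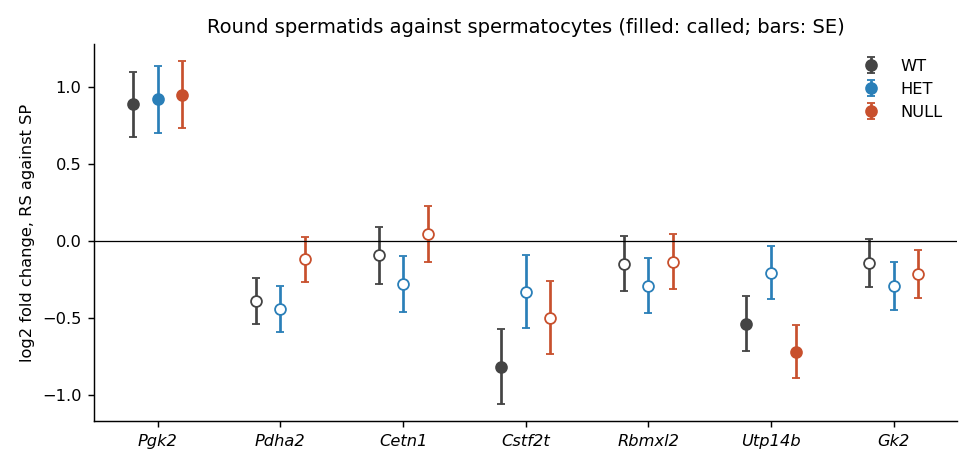
Log2 fold change of round spermatids against spermatocytes for the 7 copies in wild-type, heterozygous and null mice, with bars of 1 SE, filled points being those called by edgeR. Pgk2 is filled in all 3 genotypes, Cstf2t in wild type and not in the others, and Utp14b in wild type and null, and all other points are open.

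The other copies were not called in any genotype. Pdha2 lay at 211 to 251 CPM in wild-type spermatocytes and at 169 to 196 CPM in wild-type round spermatids, with a log2 fold change of -0.39 (edgeR adjusted p = 0.0604), and its change in heterozygous mice was -0.44 (adjusted p = 0.0643), called when either the first or the second heterozygous spermatocyte replicate was left out. Wild-type values of Cetn1 were 628 to 721 CPM and 561 to 752 CPM (-0.09, adjusted p = 0.749), those of Rbmxl2 79.3 to 97.5 CPM and 76.7 to 88.8 CPM (-0.15, adjusted p = 0.588), and those of Gk2 883 to 1067 CPM and 781 to 999.8 CPM (-0.14, adjusted p = 0.535). Fractions of the last 3 overlapped. Whether the change between fractions itself differed between genotypes was tested as an interaction, and no copy was called for null or heterozygous against wild type (0 of 7 in each, 0 at an unadjusted p under 0.05 with edgeR, 0 with DESeq2), as were 0% and 0% of all genes. For Cstf2t the difference of log2 fold changes was 0.32 (SE 0.34, adjusted p = 0.859) in null and 0.49 (SE 0.34, adjusted p = 0.693) in heterozygous mice, so its call in wild type alone is not shown to set that genotype apart.

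Among the parents, 4 of 7 were called higher in wild-type round spermatids: Gk by 1.76 on the log2 scale (edgeR adjusted p = 0.00375), Pdha1 by 1.25 (adjusted p = 0.0188), Cetn2 by 0.90 (adjusted p = 0.00925) and Cstf2, the X-linked subunit of the cleavage factor, by 0.75 (adjusted p = 0.00153). Of all genes tested 12.7% were called higher, and of 783 X-linked genes 141. All 4 calls were lost with the 3 outlier libraries added back (Gk adjusted p = 0.0778, Pdha1 0.0911, Cetn2 0.134 and Cstf2 0.0630), and that of Pdha1 also without the fourth round spermatid replicate (adjusted p = 0.0720). Pgk1 at 0.75 (adjusted p = 0.0598), Utp14a at 0.33 (adjusted p = 0.336) and Rbmx at -0.19 (adjusted p = 0.678) were not called by edgeR. DESeq2 called 5 of the 7 higher, Pgk1 among them (0.72, adjusted p = 0.0469), and Pgk1 was also called with no filter on low counts (0.78, adjusted p = 0.0401). Wild-type libraries of the 2 fractions with consecutive library numbers deviated together (correlations of 0.29 to 0.79 in 3 pairs), and with these pairs as a block Pdha1 was not called (1.15, adjusted p = 0.0626) while Pgk1 was (0.95, adjusted p = 0.00912). The 3 calls among the copies were the same in number with this block. The median over all X-linked genes tested was 0.45 and over autosomal genes -0.01. Some markers of other cells were also higher in this comparison. Called higher were 4 of 7 macrophage markers (median 1.89), 3 of 8 spermatogonium markers (0.55) and 1 of 3 erythrocyte markers (3.18). Of 8 Sertoli and 5 Leydig markers 0 were called (medians 0.25 and 0.05). The part of such cells in the change of the parents was not tested. Within the Cstf2 pair, the copy was thus lower and the parent higher in wild-type round spermatids.

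No copy passed the edgeR test between null and wild-type spermatocytes, and Cstf2t came nearest, while its parent Cstf2 stood higher by a like amount. Called by edgeR were 0 of the 7 copies and 0.0411% of all genes (8 of 19450). At an unadjusted p under 0.05 1 copy was lower, as were 2819 of the 19450 genes, and DESeq2, the tool the study used, called the same gene, Cstf2t, while it called 15.6% of all genes. Log2 fold changes of null against wild type were 0.20 for Pgk2 (edgeR adjusted p = 0.470), -0.28 for Pdha2 (0.293), -0.24 for Cetn1 (0.459), -0.08 for Rbmxl2 (0.825), 0.06 for Utp14b (0.833) and -0.07 for Gk2 (0.806). Their median, Cstf2t included, was -0.08, beside -0.06 over autosomal genes and -0.03 over all genes.

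Cstf2t in spermatocytes stood at 56.6, 48.0, 63.0 and 35.3 CPM in wild-type, at 33.4, 30.7 and 22.98 CPM in heterozygous and at 20.2, 33.3 and 25.7 CPM in null libraries. The lowest wild-type library was above every heterozygous and null library, the closest being 35.3 against 33.4 CPM. This held only without the wild-type outlier library, which stood at 30.1 CPM. With the 3 outlier libraries added back the null against wild-type change was -0.75 (edgeR adjusted p = 0.216). The log2 fold change of null against wild type was -0.92 (SE 0.23, adjusted p = 0.0599 with edgeR, DESeq2 -0.90 with adjusted p = 0.00989), and that of heterozygous against wild type -0.76 (SE 0.23, adjusted p = 0.125 with edgeR, DESeq2 adjusted p = 0.0444). Without the fifth wild-type replicate, the one at 35.3 CPM, the edgeR adjusted p of null against wild type was 0.00817, and over all genes 4526 were called in place of 8.

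Cstf2 in the same libraries stood at 39.1, 43.3, 32.1 and 54.6 CPM in wild-type, at 65.8, 68.9 and 56.4 CPM in heterozygous and at 77.4, 73.4 and 76.8 CPM in null mice. The groups did not overlap, in the order wild type, heterozygous, null. Its log2 fold change in null against wild type was 0.86 (SE 0.19, adjusted p = 0.0599 with edgeR, DESeq2 adjusted p = 0.00190), and in heterozygous against wild type 0.63 (SE 0.19, adjusted p = 0.124 with edgeR, DESeq2 adjusted p = 0.0381). Cstf2t and Cstf2 thus went in opposite directions in the spermatocyte libraries with the deletion, by DESeq2 past the threshold and by edgeR short of it. Of the X-linked genes tested 82.5% were above 0 in null and 91.3% in heterozygous mice, with medians of 0.61 and 0.66. The direction of Cstf2 was thus that of most of its chromosome.

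The spermatocyte markers, too, had lower summed levels in null libraries. The 10 markers, among them the synaptonemal complex gene Sycp1, summed to 2059, 1737, 2479 and 1461 CPM in wild-type, to 1387, 1135 and 1106 CPM in heterozygous and to 947, 1458 and 1358 CPM in null spermatocyte libraries. Their median log2 fold change in null against wild type was -0.60, with 1 of 10 above 0. None of the 10 was called by edgeR. Other lists, also with 0 genes called, had medians away from 0: the median was -0.82 for 8 Sertoli markers, with 0 above 0 and mean sums of 247 CPM in wild-type and 134 CPM in null libraries, 0.40 for 10 round spermatid markers, with 8 above 0, and 0.46 for 8 spermatogonium markers, with 6 above 0. In 5 of 6 groups of fraction and genotype the libraries fell into the same order by Cstf2t and by this sum, a comparison added after the values were seen, which was so in no more than 1 group for any other copy, and Cstf2 had the opposite order in 4 of 6. Per 1000 CPM of these markers, Cstf2t was 26.2 ± 1.68 CPM in wild-type (SD, n = 4), 23.95 ± 3.12 in heterozygous and 21.04 ± 1.97 in null spermatocytes (n = 3 each). The wild-type libraries lay at 24.2 to 27.6 and the null ones at 18.95 to 22.9, and the log2 ratio of their means was -0.32. Since the sum was already seen to be lower in null libraries, this scale had to give a smaller difference than the level itself, and it is a description. In round spermatids the same quantity was 27.0 ± 3.11 in wild-type (n = 3), 25.6 ± 1.39 in heterozygous and 22.4 ± 3.71 in null libraries (n = 4 each), close to the spermatocyte values of each genotype. The part of cell composition in the result was not tested.

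**Figure D4:**
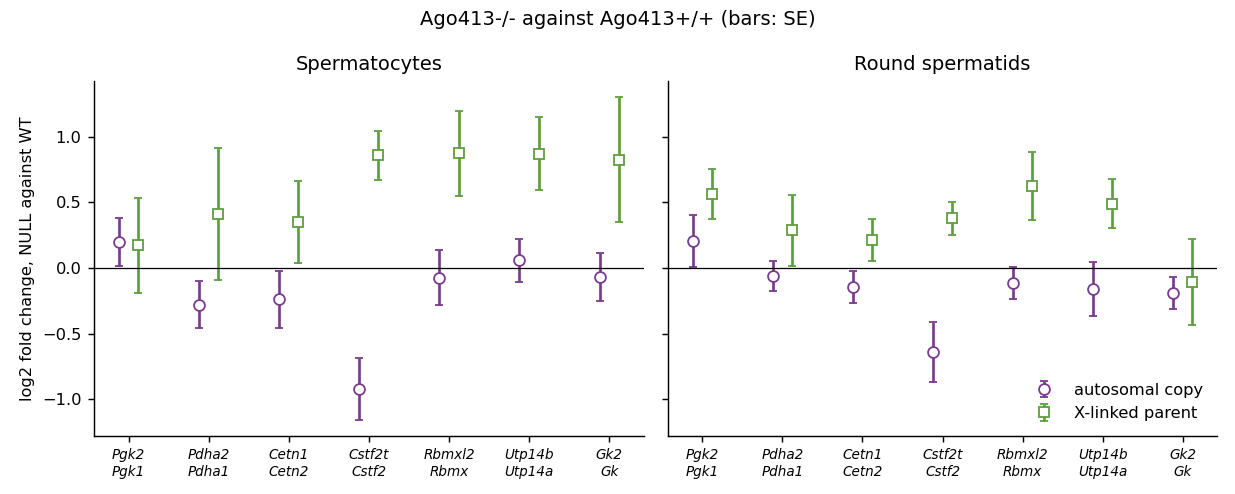
Log2 fold change of null against wild type, with bars of 1 SE, for the 7 copies and their X-linked parents in spermatocytes and round spermatids. In spermatocytes Cstf2t lies at -0.92 and Cstf2 at 0.86, all 7 parents lie above 0, and the other copies lie between -0.28 and 0.20.

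All 7 parents had a log2 fold change above 0 in null against wild-type spermatocytes, with a median of 0.83, which is the value of Gk. This rested in part on the first null replicate: without it Gk was at 0.00, Cetn2 at 0.03, Pdha1 at 0.04 and Pgk1 at -0.14. In Gk that replicate stood at 1.91 CPM beside 0.613 and 0.583 CPM, and the wild-type libraries at 0.436 to 0.723 CPM. Most of the chromosome they lie on moved the same way, 82.5% of the X-linked genes tested being above 0, with a median of 0.61. Utp14a at 0.87 (edgeR adjusted p = 0.0742, DESeq2 0.0237) and Rbmx at 0.87 (edgeR 0.0991, DESeq2 0.0422) were called by DESeq2 together with Cstf2. Gk at 0.83, Pdha1 at 0.41, Cetn2 at 0.35 and Pgk1 at 0.17 were called by neither tool. Groups did not overlap for Cstf2, Rbmx and Utp14a, all higher in null, against 13.2% of all genes, and for Cstf2t, Pdha2 and Cetn1, all lower in null, against 14.8% of all genes. For X-linked parents all genes are a low background: of 737 X-linked genes 252 were higher at an unadjusted p under 0.05 with edgeR. DESeq2 called 148 of them higher.

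Pdha2 stood at 251, 237, 244 and 211 CPM in wild-type and at 176, 209 and 190.2 CPM in null spermatocytes, the closest being 211 against 209. Cetn1 stood at 687, 721, 628 and 704 CPM and at 541, 596 and 582 CPM. Both differences were well short of the test, and the heterozygous libraries spread across both ranges, at 176 to 295 CPM for Pdha2 and 480.4 to 1019.6 CPM for Cetn1. Pgk2 in null spermatocytes depended on the first replicate, whose 963 CPM went with the highest summed round spermatid markers of any spermatocyte library (12435 CPM) and the lowest spermatocyte markers (947 CPM). Without it the log2 fold change of Pgk2 was -0.01.

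The labels give each library a number, and the null spermatocyte libraries were mostly those with higher numbers. Among libraries numbered up to 60, Cstf2t was 48.0 to 63.0 CPM in 3 wild-type and 20.2 CPM in 1 null library. Among those above 60 it was 35.3 CPM in 1 wild-type and 25.7 to 33.3 CPM in 2 null libraries. The null libraries were lower within both parts, by less in the second. A fit that held the 2 parts apart gave -0.87 on the log2 scale (edgeR adjusted p = 0.173).

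In heterozygous against wild-type spermatocytes 0 of 7 copies were called by edgeR, against 0.0257% of all genes. At an unadjusted p under 0.05 1 was lower, as were 1901 of the 19450 genes. DESeq2 called 1, Cstf2t, against 6.31% of all genes. The 7 log2 fold changes lay between -0.76 and 0.22, with a median of 0.02. In this comparison the 10 spermatocyte markers had a median of -0.66, with 0 above 0. The 8 spermatogonium markers had a median of 0.87, with 7 above 0 and 1 called higher by edgeR. The 5 Leydig markers tested had a median of 1.18, with 5 above 0, and the 10 round spermatid markers 0.46, with 8 above 0. The part of cell composition was not tested. The third heterozygous replicate stood apart, being the highest of its group for 6 of the 7 copies (all but Cstf2t) and for 16 of 22 autosomal copies when 15 more are counted in, where 43.0% of all tested genes had their highest value in it. Its Gk2 was 1345 CPM beside 789 and 783, its Cetn1 1019.6 beside 527 and 480.4, and its Rbmxl2 145 beside 82.3 and 74.9. It also had the lowest Sertoli marker sum, 80.04 CPM. Null against heterozygous spermatocytes gave 0 of 7 calls, against 0.00514% of all genes, with log2 fold changes between -0.29 and 0.23 (0 at an unadjusted p under 0.05 with edgeR, 0 with DESeq2).

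In round spermatids no copy was called between genotypes, and Cstf2t again had the most negative change in null mice. Null against wild type gave 0 of 7 calls with edgeR, against 0.0518% of all genes, and 0 with DESeq2, against 3.64% of all genes. At an unadjusted p under 0.05 1 copy was lower, as were 2187 of the 19310 genes. Cstf2t stood at 33.8, 23.03 and 29.8 CPM in wild-type, at 20.2, 30.8, 22.6 and 18.9 CPM in heterozygous and at 15.6, 13.5, 24.8 and 20.9 CPM in null libraries. Null and wild type overlapped through a null library at 24.8 CPM. The log2 fold change was -0.64 (SE 0.23, adjusted p = 0.159 with edgeR, DESeq2 adjusted p = 0.0867). The 2 null libraries numbered up to 60 were the 2 lowest, at 13.5 and 15.6 CPM, and those above 60 were at 20.9 and 24.8 CPM. Markers shifted in the same comparison. The 10 spermatocyte markers had a median of -0.45, with 2 above 0 and 1 called lower by edgeR. The 10 round spermatid markers had a median of 0.33, with 10 above 0 and 0 called. The part of cell composition was not tested.

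The other copies had log2 fold changes of 0.21 for Pgk2, -0.06 for Pdha2, -0.15 for Cetn1, -0.12 for Rbmxl2, -0.16 for Utp14b and -0.19 for Gk2 in null against wild-type round spermatids. Ranges overlapped for all 7 copies, while 9.09% of all genes were higher and 10.3% lower in null without overlap. Of the parents, Cstf2, Pgk1, Rbmx and Utp14a were higher in null without overlap. Most of their chromosome moved the same way, 85.2% of the 748 X-linked genes tested being above 0, with a median of 0.38. Cstf2 stood at 64.7, 71.3 and 77.9 CPM in wild-type and at 95.3, 103, 90.1 and 89.2 CPM in null libraries, a log2 fold change of 0.38 (SE 0.12, adjusted p = 0.133 with edgeR, DESeq2 0.0572). Heterozygous against wild type gave 0 of 7 calls, against 0.0207% of all genes, with changes of -0.30 to 0.12, and null against heterozygous 0 of 7, against 0.00518%, with changes of -0.34 to 0.10 (both 0 at an unadjusted p under 0.05 with edgeR and 0 with DESeq2).

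The ratio of copy to parent within a library sets each pair on a scale that does not depend on depth. Cstf2t over Cstf2 per kb, on the log2 scale, was 1.65, 1.27, 2.09 and 0.49 in wild-type spermatocytes, 0.14, -0.05 and -0.18 in heterozygous and -0.82, -0.02 and -0.46 in null ones. Per kb, the copy was above the parent in all 4 wild-type libraries and below it in all 3 null libraries. Where the ratio crosses 0 depends on the annotated exon lengths, 4233 bases for Cstf2t and 9180 for Cstf2. In CPM the fifth wild-type library had the copy below the parent, at 35.3 against 54.6. Differences between genotypes do not depend on these lengths. The means of the log2 ratio differed by -1.81 between null and wild type (exact permutation test, two-sided, p = 0.0571). This is the smallest p that 35 arrangements of 4 against 3 libraries allow, so no pair could pass 0.05. In round spermatids the ratio was 0.18, -0.51 and -0.27 in wild-type, -0.95, 0.12, -0.64 and -1.12 in heterozygous and -1.49, -1.82, -0.75 and -0.97 in null libraries, and the means of null and wild type differed by -1.06 (exact permutation p = 0.0571).

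**Figure D5:**
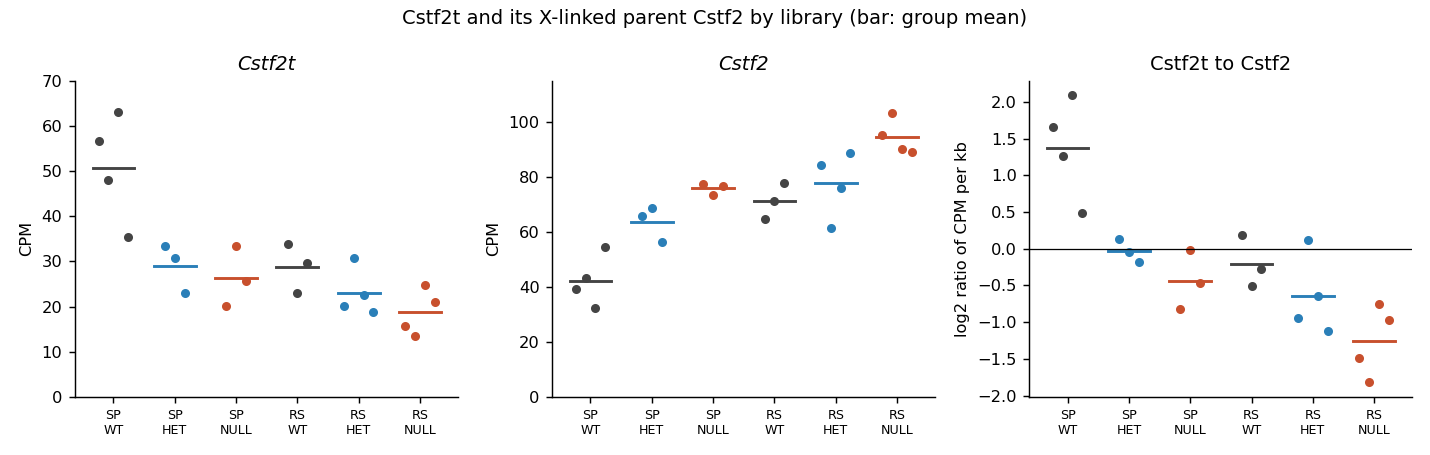
Cstf2t in CPM, Cstf2 in CPM and the log2 ratio of Cstf2t to Cstf2 per kb, by library, in the 6 groups. The ratio lies between 0.49 and 2.09 in wild-type spermatocytes and between -0.82 and -0.02 in null ones, with Cstf2t lower and Cstf2 higher in null libraries.

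Utp14b over Utp14a, the ribosomal RNA processing pair, was 1.78, 1.64, 1.48 and 1.02 in wild-type and 0.24, 0.89 and 0.68 in null spermatocytes, without overlap. The means differed by -0.88 (exact permutation p = 0.0571). The copy itself overlapped between the genotypes, while Utp14a stood at 5.40, 6.32, 7.13 and 11.2 CPM in wild-type and at 14.5, 11.9 and 14.4 CPM in null libraries. For the other pairs the difference of the mean log2 ratios in spermatocytes was -1.02 for Rbmxl2 (exact permutation p = 0.114), -0.70 for Gk2 (0.286), -0.67 for Pdha2 (0.343), -0.59 for Cetn1 (0.171) and 0.03 for Pgk2 (0.914). In round spermatids it was -0.77 for Rbmxl2, -0.35 for Cetn1 and -0.34 for Pdha2 (exact permutation p = 0.0571 each), -0.71 for Utp14b (0.114), -0.38 for Pgk2 (0.171) and 0.02 for Gk2 (0.971). These 14 comparisons, 7 pairs in 2 fractions, share libraries, and the raw p-values are given.

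The genes whose pattern over the 21 libraries was most like that of each copy were found by the root mean square difference of centred log2 levels, where 0 means the same pattern, among 20403 other genes. For Cetn1 these were Cmtm2b (0.0428), Tcea2 (0.0716) and Insl6 (0.0727), for Gk2 Pfn4 (0.0614), Gtf2a1l (0.0642) and D16Ertd472e (0.0687), and for Pdha2 Atp5f1 (0.0727), Psmc3ip (0.0774) and Fbp1 (0.0787). For Pgk2 they were Entr1 (0.0828), the glycolytic aldolase gene Aldoa (0.0941) and Spata6 (0.101). For Cstf2t they were Adsl (0.106), Nap1l4 (0.114) and Srrt (0.125), for Utp14b Ccdc62 (0.101), Eif2ak2 (0.104) and Wdr78 (0.106), and for Rbmxl2 Trir (0.108), Ndufs3 (0.116) and Rps4l (0.121). Among the 7 copies themselves, Cetn1 and Gk2 were the most alike (0.119) and Pgk2 and Cstf2t the least (1.02). All values share the same libraries, depth and cell mixture and are descriptions.

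A list of 15 more autosomal copies of X-linked genes served as the nearest comparison. All 15 were tested. The highest per kb, as means over all 21 libraries, were Gykl1, another glycerol kinase copy, at 381, the ribosomal protein copy Rpl39l at 326 and the ubiquitin-like gene Ubl4b at 278 CPM per kb. The order depends on the fraction: in wild-type spermatocytes Rpl39l was at 356, Gykl1 at 337 and Rpl10l, another ribosomal protein copy, at 307 CPM per kb, with Ubl4b the seventh at 116, and in wild-type round spermatids Rpl39l was at 356, Gykl1 at 367 and Ubl4b at 386, where the ranges overlapped. Between fractions in wild-type mice edgeR called 2 of them higher in round spermatids, Ubl4b by 1.73 (adjusted p = 0.00107) and G6pd2, a copy of the glucose-6-phosphate dehydrogenase gene, by 0.80 (adjusted p = 0.00363), and 2 lower, Naa11 at -1.04 (adjusted p = 0.00212) and Zfa-ps at -1.90 (adjusted p = 0.00379). Rpl10l, G6pd2, Naa11, Zfa-ps and, below, Timm8a2 were picked for naming after their values were seen. Of all genes 12.7% were called higher and 11.4% lower, so these 2 and 2 of 15 lie near the background.

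In null against wild-type spermatocytes edgeR called 0 of the 15, with 1 higher and 4 lower at an unadjusted p under 0.05, where 3088 of the 19450 genes were higher and 2819 lower, and the median was -0.18. Their log2 fold changes lay between -1.61 and 0.96, the most negative going beyond that of Cstf2t. DESeq2 called 1 higher, G6pd2, and 3 lower, Naa11, Timm8a2 and Zfa-ps, and of all genes 1766 higher and 1260 lower. Timm8a2, a copy of a mitochondrial import gene, stood at 20.5, 17.2, 18.3 and 14.1 CPM in wild-type, 10.7, 11.2 and 7.63 CPM in heterozygous and 8.57, 10.9 and 7.99 CPM in null libraries, a log2 fold change of -0.92 (SE 0.23, adjusted p = 0.0599 with edgeR, DESeq2 0.00355), the size of the change of Cstf2t. G6pd2 stood at 27.6, 28.4, 28.8 and 44.7 CPM in wild-type and at 61.1, 61.3 and 64.7 CPM in null libraries, a log2 fold change of 0.96 (SE 0.21, adjusted p = 0.0599 with edgeR, DESeq2 0.00242), in the direction opposite to that of Cstf2t.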

How the data were processed

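RNA-seq was done on testis cell fractions separated on a BSA gradient, from libraries of polyadenylated RNA made with a directional kit. The authors trimmed reads with TrimGalore, dropping those under 50 nt, mapped them to mm10 with STAR and deposited raw counts of uniquely mapped reads per gene. Tool versions, the strand column and the annotation release are not given in the sources used here. Groups follow the labels. Nothing in the labels says that samples of a group came from separate litters or days, so p-values measure the spread between these preparations.

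A gene was kept if 3 or more libraries of a fit held 10 or more counts of it. Counts were tested with edgeR 4.0.16 (TMM, quasi-likelihood, Benjamini-Hochberg over all genes tested) in R 4.3.3, by genotype within each fraction and by fraction and interaction in a joint fit of 6 groups. DESeq2 1.42.0 was an alternative, as were other filters, terms and left-out libraries, and scripts were tested on simulated data. The named genes were the 7 copies, their parents, for each copy the 3 genes with the smallest root mean square difference, and, of 15 other copies, those called and the 3 highest. Single ratios were compared by exact permutation tests over libraries. Promoters came from RefSeq (GRCm38.p6) and gene models from GENCODE M21 (all 55536 identifiers matched). The members and lists were chosen with earlier results of these data known. The 27 pairs of libraries within a group all differed by more than sampling noise.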

Additional observations from a re-analysis of the deposited data

Results flagged for a closer look

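The level of Pgk1, the X-linked parent of Pgk2, in the first null round spermatid replicate was 14.6 CPM, where the other 3 null replicates stood at 11.09, 11.09 and 11.04 CPM. Its distance to the nearest of them, against the range of the group, was past Dixon's 95% critical value. Of the 42 groups of 4 libraries examined this was the 1 set aside, and chance alone sets aside about 1 in 20. More than 50% of the exonic stretches of Pgk1 also occur in Pgk1-rs7, so its counts are uncertain.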

How the results depend on the processing

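The number of copies called between null and wild-type spermatocytes was 0 and became 1, Cstf2t, with DESeq2, with no filter on low counts, with only the groups compared in the fit and without the fifth wild-type replicate (0 to 1 over the libraries left out). For heterozygous against wild-type spermatocytes it became 1 with DESeq2 and with no filter (0 to 1 over the libraries left out). Between fractions, the 3 calls in wild type became 0 with the 3 outlier libraries added back, and 1 to 3 when a library was left out, the 1 being without the fourth spermatocyte or the second round spermatid replicate. With no filter they became 2, Utp14b being lost. The 1 call in heterozygous mice became 0 with the outlier libraries and with only the groups compared, and 1 to 2 when a library was left out. The 2 calls in null mice became 1 to 2. The other comparisons of genotypes and the interactions gave 0 copies called in each alternative run. The cause of these shifts was not tested.

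Cstf2t in null against wild-type spermatocytes kept its direction in all 14 alternatives, at -0.90 to -0.75 and, with libraries left out, -1.12 to -0.75, with adjusted p from 0.00674 to 0.225. Signs turned for changes near 0. In null against wild-type spermatocytes, Pgk2 went to -0.01 when libraries were left out (highest 0.31), Rbmxl2 to 0.00 and Gk2 to 0.01 with the outlier libraries, Utp14b to -0.07 with the library number as a term and to -0.02 (highest 0.15) with libraries left out, and Pgk1 to -0.14 (highest 0.36). Between fractions in wild type Rbmx went to 0.02 with the outlier libraries, to 0.05 with the replicate block and from -0.40 to 0.05 with libraries left out. With libraries left out the interaction of Pgk2 ran from -0.08 to 0.23 for null and from -0.16 to 0.16 for heterozygous mice, and under the other alternatives from 0.00 to 0.35 and from -0.02 (no filter) to 0.19.

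Consecutive library numbers gave correlations of 0.06 to 0.07 in 3 heterozygous and 0.56 to 0.69 in 3 null pairs across fractions, and that block changed no number of calls among the copies. Replicate numbers did not pair the libraries: within spermatocytes 4 of 7 same-numbered pairs had a correlation of deviations over 0.1, and within round spermatids 6 of 10. With the replicate block Cstf2t in null against wild-type spermatocytes was -0.90 (edgeR adjusted p = 0.0799), Cstf2 0.94 (adjusted p = 0.0496), and Utp14b between wild-type fractions -0.47 (adjusted p = 0.0382), short of 0.5 in size.

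Over all genes, null against wild-type spermatocytes gave 8 calls with edgeR, 3026 with DESeq2, 2623 with no filter, 1303 with only the groups compared, 687 with the replicate block, 4 with the library number as a term and 4526 without the fifth wild-type replicate. Heterozygous against wild type gave 5, 1228 with DESeq2, 1481 with no filter, 2 with the block and 2966 without that replicate. Null against heterozygous gave 1, 4 with DESeq2 and 30 with no filter. In round spermatids null against wild type gave 10, 702 with DESeq2, 20 with its size factors, 238 with no filter and 26 with the outlier libraries, heterozygous against wild type 4, 7 with DESeq2 and 10 with no filter, and null against heterozygous 1, 20 and 11. Between fractions the outlier libraries took 4934 calls to 0 in wild type, 1814 to 0 in heterozygous and 3498 to 2275 in null mice, and only the groups compared left 505, and the block of consecutive library numbers 1189, in heterozygous mice. Depth limits the parents Gk and Pdha1, with at most 62 and 33 counts in a library.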
